A study of Homo sapiens with 6 samples.

Results

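A set of 10 genes of the Notch pathway was followed across the series: the receptors NOTCH1, NOTCH2 and NOTCH3, the ligands JAG1, JAG2 and DLL1, the DNA-binding factor RBPJ, its coactivator MAML2, and the target genes HES1 and HEY1. They were chosen by symbol, through probe sets that the platform annotation gives exactly 1 gene symbol, and all 10 were measured, by 28 probe sets, among 19775 genes in all. The series holds 6 Affymetrix arrays, each hybridized with RNA of Caco-2, an established line from a human colorectal adenocarcinoma that forms an enterocyte-like epithelium. In 3 arrays the cells had received a small interfering RNA (siRNA) against SDC1, the gene of the heparan sulfate proteoglycan syndecan-1, and in the other 3 a negative control siRNA, so that every array comes from transfected cells. Neither the sequences of the siRNAs, the dose nor the time after transfection is given in the sources used here, and while the submitters describe the replicates as independent, separate cultures are not mentioned, so p-values measure the spread between arrays, which may be technical.

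Notch receptors are single-pass membrane proteins that bind Jagged or Delta-like ligands on a neighbouring cell. Binding exposes the receptor to an ADAM protease and then to gamma-secretase, which frees the intracellular domain. In the nucleus this domain joins RBPJ and a Mastermind-like protein, such as MAML2, and switches on genes of the HES and HEY repressor families. In the intestinal crypt this signalling keeps progenitors dividing and favours the absorptive over the secretory fate, largely through repression of ATOH1 by HES1.

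HES1 is the textbook target of the RBPJ complex, and its promoter is shown as an example of the letters the complex is known to bind. RBPJ sites follow the pattern GTGNGAA, which was searched on both strands of the RefSeq promoter windows (GRCh38.p14, 250 bases before to 50 bases after each gene start). The window of HES1, chr3:194135898-194136197 on the plus strand, is given 5′ to 3′ with the matches in capitals.
HES1: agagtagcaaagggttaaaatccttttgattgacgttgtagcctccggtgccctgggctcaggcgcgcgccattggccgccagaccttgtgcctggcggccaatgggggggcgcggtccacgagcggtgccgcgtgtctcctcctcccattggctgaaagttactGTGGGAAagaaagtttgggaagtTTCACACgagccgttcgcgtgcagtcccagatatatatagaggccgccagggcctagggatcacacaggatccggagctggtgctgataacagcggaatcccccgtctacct
It held 2 matches, which began 85 and 62 bases before the gene start, lay on opposite strands facing each other, and had 16 bases between them. Of 35116 windows, 13.8% held at least 1 match and 1.26% at least 2. A facing pair with exactly 16 bases between was found in 3 windows (0.0085%), those of HES1, HES4 and ITIH4. This spacing is that of the HES1 window, so HES1 had to be among them, and facing pairs with other spacings were not counted. The pairs of HES1 (chr3:194136063-194136092, plus strand) and HES4 (chr1:1000145-1000174, minus strand) are set side by side because both genes belong to the HES family, again with the matches in capitals.
HES1 pair: GTGGGAAagaaagtttgggaagtTTCACAC
HES4 pair: GTGGGAAagaatgcggagccgggTTCACAC
The stretches were 30 bases long and identical at 21 bases, 7 of them among the 16 bases between the matches. Within the matches the search fixed every base except the free position N, so identity there was set in advance. Matches are given for the windows of 8 of the 10 Notch genes. DLL1 had no window in the promoter set used, and whether the promoter of HEY1 holds a match is not reported here. Besides HES1, 1 of the 5 windows of RBPJ held matches, 2 on opposite strands, and the windows of JAG1, JAG2, MAML2, NOTCH1, NOTCH2 and NOTCH3 held none. Among 17 other target genes, matches are given for 13, and 6 of these had at least 1 match: GATA3, HES4, HES5, HEY2, HEYL and OLFM4. A gene can have several windows, and counted by window the matches fell in 7 of 20, the count to set beside the 13.8% of all windows. The target genes outside these 13 are not reported here, which does not mean that they lack a window or a match. A match is a run of letters and says nothing about occupancy in these cells.

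The values are centred, with 0 at the median of the 6 arrays for each probe set. Their log base is not stated in the sources used here; it was read as 2 from the numerical steps of the values, and every log2 difference and fold rests on that reading. A gene's arrays can therefore be compared with each other, but its level cannot be compared with that of another gene. A rough brightness was read from the numerical steps of the values (step classes: log2 signal 8 to 16, 4 to 8 or below 4), and a gene's value averages those of its probe sets that fall in the brightest class it reaches. Of the 10 Notch genes, 5 had their brightest probe set at 8 to 16 (NOTCH2, JAG1, RBPJ, HES1 and HEY1) and the other 5 at 4 to 8. SDC1, the siRNA target, was at 0.37, 0.35 and 0.35 in control replicates 1 to 3 and at -0.50, -0.62 and -0.34 with SDC1 siRNA, a log2 difference of -0.84 ± 0.08 (SE, n = 3 and 3; limma adjusted p = 0.0238), a call lost when any 1 array was left out (adjusted p from 0.0615 to 0.326). Of 9 measured epithelial markers, 6 were at 8 to 16 (EPCAM, CDH1, KRT8, KRT18, KRT19 and CDX1), 2 at 4 to 8 and CDH17 below 4. Among markers of other cell types, COL1A1 and COL1A2 of 8 fibroblast genes, VWF of 6 endothelial genes and 0 of 4 leukocyte genes reached 8 to 16. Their mean relative log2 signal ran from -0.05 to 0.15 with control and from -0.05 to -0.00 with SDC1 siRNA for fibroblast markers, from -0.09 to -0.05 and from 0.03 to 0.06 for endothelial markers, the only list whose groups did not overlap, and from -0.09 to 0.12 and from -0.06 to 0.11 for leukocyte markers. The part of these markers in the results below was not tested.

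No Notch gene passed the threshold. With limma and Benjamini-Hochberg adjustment over all genes, 0 of 10 reached an adjusted p of 0.05, where 0.0253% of all genes did, and the members' adjusted p ran from 0.221 to 0.985. At an unadjusted p under 0.05 there were 4 of the 10, against 10.6% of all genes: MAML2, HEY1 and DLL1 on the lower side and JAG1 on the higher side with SDC1 siRNA. When every probe set entered the gene average this count was 2 of 10, and without _x_at and _s_at probe sets it was 2 of the 6 genes that keep a value. It was 5 of 10 with replicate number as a block, without control replicate 1 or without SDC1 siRNA replicate 3. In the other alternative fits it stayed at 4 of 10. The groups did not overlap in 5 of the 10, against 16.7% of all genes: 4 lower (MAML2, HEY1, DLL1 and NOTCH2) and 1 higher (JAG1). Of the 10, 5 lay below 0, where 47.9% of all genes did. The median absolute log2 difference was 0.17 over the 10 genes and 0.08 over all genes, and the median signed difference was -0.04 and 0.01. The 8 fibroblast markers had a median absolute log2 difference of 0.18. Groups did not overlap in 5 of them, with 1 higher and 3 lower at an unadjusted p under 0.05 (limma). Groups did not overlap in 1 of 9 epithelial, 2 of 6 endothelial and 0 of 4 leukocyte markers. Their median absolute differences were 0.04, 0.08 and 0.06.

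**Figure D1:**
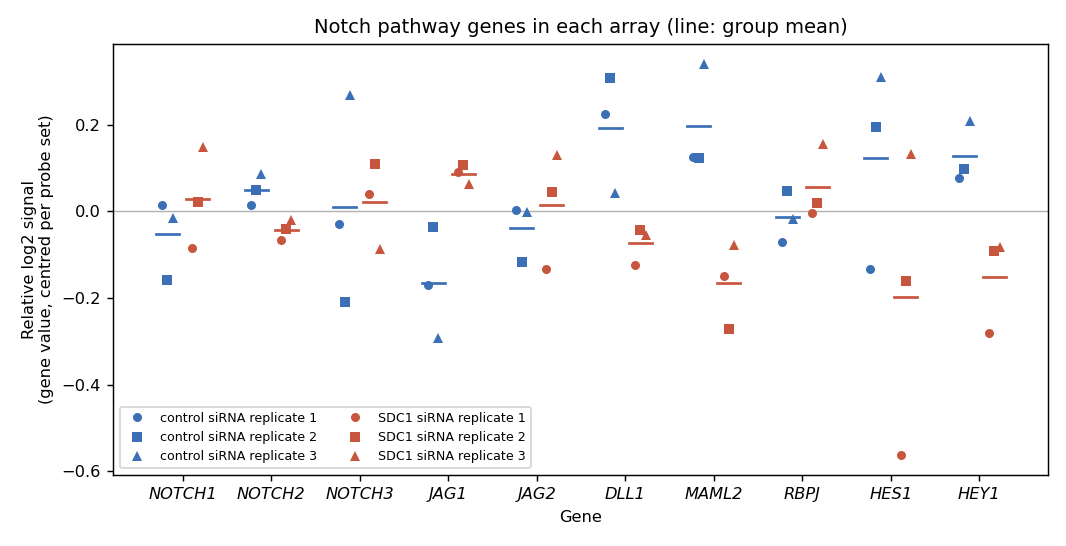
Relative log2 signal of each of the 10 genes in each array, with control siRNA in blue and SDC1 siRNA in red, marker shapes for replicates 1 to 3 and a line at each group mean. The groups do not overlap for NOTCH2, JAG1, DLL1, MAML2 and HEY1, and the lowest point of the plot is HES1 in SDC1 siRNA replicate 1, at -0.56.

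The log2 differences of the 3 receptors lay between -0.09 and 0.08. NOTCH1, the receptor best known from intestinal progenitors and T cells, was at 0.02, -0.16 and -0.02 in control replicates 1 to 3 and at -0.09, 0.02 and 0.15 with SDC1 siRNA. The groups overlapped, and the log2 difference was 0.08 ± 0.09 (SE; 95% interval -0.11 to 0.28; limma adjusted p = 0.794). It was 0.02 without SDC1 siRNA replicate 3, 0.03 without control replicate 2 or with array weights, and 0.14 without SDC1 siRNA replicate 1. Its dim second probe set gave the same difference, 0.08, with a wider spread.

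NOTCH2, a receptor expressed with NOTCH1 in crypt progenitors, was at 0.01, 0.05 and 0.09 with control and at -0.07, -0.04 and -0.02 with SDC1 siRNA. Every control array lay above every SDC1 siRNA array, but by a log2 difference of only -0.09 ± 0.06 (95% interval -0.24 to 0.05; adjusted p = 0.663). Of its 4 probe sets, the 2 brightest were at -0.10 and -0.08 and another, 202445_s_at, at -0.21, with its lowest value, -0.41, in SDC1 siRNA replicate 1. The other one, 210756_s_at, overlapped at 0.06 ± 0.12. NOTCH2 has near-identical partial copies, the NOTCH2NL genes, which probes can share. A probe set annotated to NOTCH2 and these copies together was left out by the 1-symbol rule.

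NOTCH3, a receptor known best from vascular smooth muscle, was at -0.03, -0.21 and 0.27 with control and at 0.04, 0.11 and -0.09 with SDC1 siRNA. Its log2 difference was 0.01 ± 0.12, and its sign depended on single arrays: it was -0.10 without control replicate 2, -0.03 without SDC1 siRNA replicate 2 and -0.01 without control replicate 1. The spread came from the probe set 203237_s_at, at 0.56 in control replicate 3 and -0.27 in control replicate 2. The receptors' intervals leave room for log2 differences of up to 0.28 for NOTCH1 and 0.29 for NOTCH3 on the higher side.

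The ligands went different ways. JAG1, a Jagged ligand and itself a known target of Wnt and Notch signalling, was at -0.17, -0.04 and -0.29 with control and at 0.09, 0.11 and 0.06 with SDC1 siRNA. All 3 SDC1 siRNA arrays lay above all 3 control arrays. The log2 difference was 0.25 ± 0.08 (95% interval 0.07 to 0.44; limma adjusted p = 0.327).

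This value rests on 2 of 6 JAG1 probe sets, and the others did not all point the same way. The brightest, 209099_x_at and 216268_s_at, were at 0.28 ± 0.09 and 0.22 ± 0.10. Of the 4 at 4 to 8, 209098_s_at was at 0.29 ± 0.09, with control arrays at -0.21, -0.09 and -0.10 and SDC1 siRNA arrays at 0.25, 0.09 and 0.11, and 231183_s_at was at 0.11 ± 0.08. On the opposite side, 209097_s_at was at -0.18 ± 0.10, with control arrays at 0.07, 0.00 and 0.02 and SDC1 siRNA arrays at -0.33, -0.00 and -0.12, and 229924_s_at was at -0.23 ± 0.11. So 3 JAG1 probe sets had all SDC1 siRNA arrays above the controls, 1 had them all below, and 2 overlapped. The mean of all 6 gave the gene a log2 difference of 0.08 (adjusted p = 0.697). Which parts of the JAG1 transcripts these probe sets read is not given in the sources used here.

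JAG2, the other Jagged ligand, was at 0.00, -0.12 and -0.00 with control and at -0.13, 0.04 and 0.13 with SDC1 siRNA. The groups overlapped, with a log2 difference of 0.05 ± 0.09 (95% interval -0.14 to 0.25; adjusted p = 0.876). Without SDC1 siRNA replicate 3 it was -0.0052.

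DLL1, a Delta-like ligand carried by secretory cells of the crypt, was at 0.23, 0.31 and 0.04 with control and at -0.12, -0.04 and -0.05 with SDC1 siRNA. The control arrays lay above the SDC1 siRNA arrays by a log2 difference of -0.27 ± 0.08 (95% interval -0.46 to -0.07; limma adjusted p = 0.322). Its second probe set, in the dimmest class, separated the groups in the opposite direction: 227938_s_at was at -0.33, -0.06 and -0.03 with control and at 0.11, 0.03 and 0.13 with SDC1 siRNA, a log2 difference of 0.23 ± 0.10. The mean of both gave -0.02 for the gene (adjusted p = 0.954). The direction for DLL1 is therefore that of the brighter probe set alone.

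**Figure D2:**
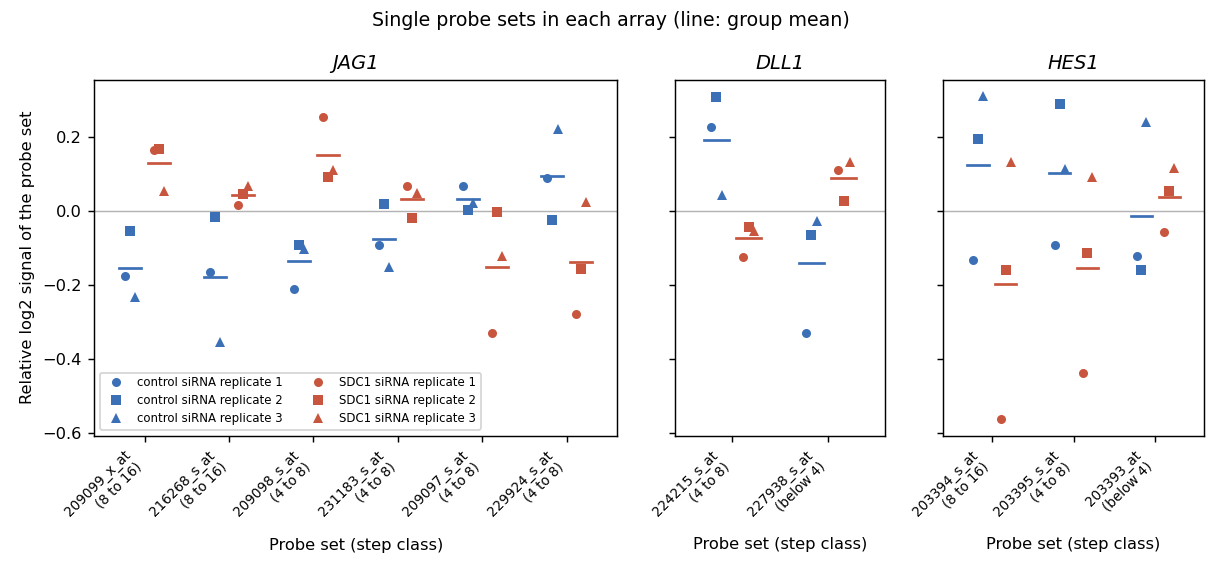
Relative log2 signal of every probe set of JAG1, DLL1 and HES1 in each array, with control siRNA in blue, SDC1 siRNA in red and lines at group means; the step class of each probe set is in brackets. For JAG1, 4 probe sets have the higher mean with SDC1 siRNA and 2 the lower, and the 2 DLL1 probe sets lie on opposite sides, at -0.27 and 0.23.

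Of the nuclear partners, MAML2 had the lowest p of the 10 genes. MAML2 encodes a Mastermind-like coactivator that bridges the Notch and RBPJ complex to histone acetyltransferases. It was at 0.13, 0.12 and 0.34 with control and at -0.15, -0.27 and -0.08 with SDC1 siRNA, with every control array above every SDC1 siRNA array. The log2 difference was -0.36 ± 0.09 (95% interval -0.56 to -0.16), which makes control 1.29-fold higher, with a limma adjusted p = 0.221. It ranked 271 by p among the 19775 genes. Both MAML2 probe sets gave this difference, at -0.35 ± 0.11 and -0.37 ± 0.10, and it lay between -0.41 and -0.29 when any 1 array was left out. Exact two-sided permutation tests of 3 arrays against 3 gave p = 0.1 for each of the 5 genes with separate groups, the smallest value the design allows.

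The other Mastermind-like genes did not share this value. MAML1 was at 0.02 ± 0.07 (adjusted p = 0.948) and MAML3 at -0.03 ± 0.08 (adjusted p = 0.938); the differences between the 3 genes were not tested.

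RBPJ, the DNA-binding factor of the pathway, was at -0.07, 0.05 and -0.02 with control and at -0.00, 0.02 and 0.15 with SDC1 siRNA. The groups overlapped, and the log2 difference was 0.07 ± 0.07 (95% interval -0.10 to 0.24; adjusted p = 0.793). It was 0.02 without SDC1 siRNA replicate 3 or without _x_at and _s_at probe sets, and 0.04 without control replicate 1. Its 3 probe sets were at 0.04, 0.10 and 0.02, and the one at 0.10, 211974_x_at, separated the groups.

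Of the target genes, HEY1, a bHLH repressor, was at 0.08, 0.10 and 0.21 with control and at -0.28, -0.09 and -0.08 with SDC1 siRNA. All control arrays lay above all SDC1 siRNA arrays. The log2 difference was -0.28 ± 0.08 (95% interval -0.47 to -0.09; limma adjusted p = 0.304), and the 2 HEY1 probe sets, both at 8 to 16, gave -0.28 each. It lay between -0.31 and -0.21 when any 1 array was left out.

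HES1, the repressor of ATOH1, was at -0.13, 0.19 and 0.31 with control and at -0.56, -0.16 and 0.13 with SDC1 siRNA. The groups overlapped: SDC1 siRNA replicate 3 lay above control replicate 1. Its log2 difference of -0.32 ± 0.18 (95% interval -0.73 to 0.08; limma adjusted p = 0.573) was close in size to that of MAML2 but had the widest standard error of the 10 genes, with an SD of 0.23 among controls and 0.35 among SDC1 siRNA arrays. The low value of SDC1 siRNA replicate 1 carried much of it. Without that array the difference was -0.14, and without SDC1 siRNA replicate 3 it was -0.49.

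The probe set 203395_s_at also had its lowest value in SDC1 siRNA replicate 1, with control at -0.09, 0.29 and 0.11 and SDC1 siRNA at -0.44, -0.11 and 0.09 (difference -0.26 ± 0.15). The dim 203393_at was at 0.05 ± 0.12, so the HES1 direction is lost without probe sets of the _s_at type. HES4, whose promoter has the same arrangement of matches, was at 0.19, -0.15 and -0.21 with control and at 0.13, -0.11 and 0.11 with SDC1 siRNA, with overlapping groups and a log2 difference of 0.10 ± 0.12 (adjusted p = 0.821). The difference between HES1 and HES4 was not tested.

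**Figure D3:**
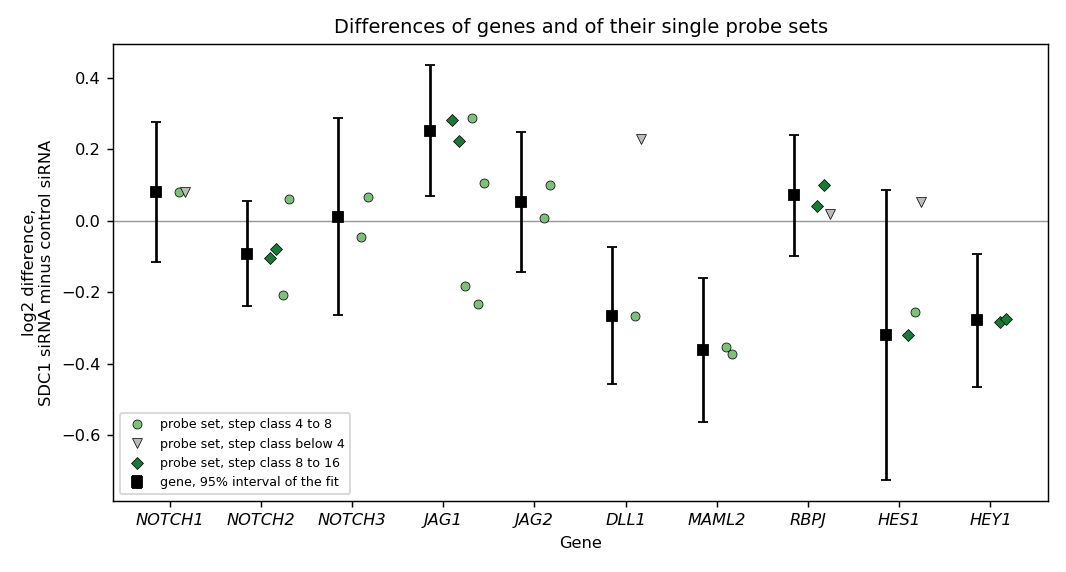
Log2 difference (SDC1 siRNA minus control siRNA) of each gene with the 95% interval of the fit (black squares) and of each of its probe sets by step class (coloured markers). The intervals of JAG1, DLL1, MAML2 and HEY1 lie off 0 before adjustment. The probe sets lie close together for MAML2 and HEY1 and straddle 0 for JAG1, DLL1, HES1, NOTCH2 and NOTCH3.

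Tested singly over 54613 probe sets, 0 of the 28 probe sets of these genes passed an adjusted p of 0.05 (limma; 0% of all probe sets did), and their lowest adjusted p was 0.438. At an unadjusted p under 0.05 there were 7, against 8.33% of all probe sets: 5 lower (both of MAML2, both of HEY1 and the brighter of DLL1) and 2 higher, both of JAG1. That count was 4 without SDC1 siRNA replicate 1 and 11 without SDC1 siRNA replicate 3. Groups did not overlap in 14 of the 28, against 14.5%: 9 lower and 5 higher. Probe sets of 1 gene share their transcript and are not independent.

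By the root mean square difference of gene values over the 6 arrays, the genes closest to MAML2 were CCDC83 (0.02), PMS2P2 (0.03) and ADGRL2 (0.04), of which the first and second were in the dimmest class. Those closest to HEY1 were HDAC8 (0.01), P2RY2 (0.04) and THOP1 (0.04). These are descriptions of patterns over 6 arrays among 19775 genes.

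Other genes of the pathway were counted in 7 lists by role, 92 genes measured in all. None passed (0 of 92 at an adjusted p of 0.05, limma, with 5 higher and 4 lower at an unadjusted p under 0.05, against 5.43% and 5.19% of all genes). The count in both directions together, 9 of 92, moved both ways with the setting. It was 4 with replicate number as a block, 5 without SDC1 siRNA replicate 2, 10 with quantile normalization and 11 with array weights. The groups did not overlap in 8 on the higher and 9 on the lower side, against 8.26% and 8.47%, and the median log2 difference was -0.01.

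Among 7 other receptors and ligands, 4 were above 0 and 3 below, with 0 called in either direction. DLL3, a ligand-like inhibitor of Notch, was at 0.17 ± 0.07 (adjusted p = 0.434) with separate groups, and DLK2 was at 0.17 ± 0.08 (adjusted p = 0.5).

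Of the 9 glycosyltransferases that add sugars to the receptors' extracellular repeats, 8 lay below 0 and 1 above, with a median of -0.09 and 0 called. EOGT, which adds O-linked GlcNAc, was at 0.18, 0.25 and 0.02 with control and at -0.02, -0.34 and -0.24 with SDC1 siRNA (-0.35 ± 0.10, adjusted p = 0.291). GXYLT1, a xylosyltransferase, was at 0.03, 0.28 and 0.15 and at -0.15, -0.32 and -0.03 (-0.32 ± 0.10, adjusted p = 0.319). The groups were separate for both, and the Fringe genes LFNG, MFNG and RFNG were at 0.05 ± 0.09, -0.06 ± 0.08 and -0.09 ± 0.09.

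Among 8 measured genes of proteolytic processing, 4 lay on each side of 0 and 0 were called. PSEN2, a catalytic subunit of gamma-secretase, was at 0.12 ± 0.07 (adjusted p = 0.569) and FURIN, the convertase that cuts the receptor precursor, at 0.08 ± 0.06 (adjusted p = 0.693), each with separate groups. The proteases ADAM10 and ADAM17 were at -0.02 ± 0.07 and -0.06 ± 0.08.

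Of 17 genes of endocytosis and ubiquitination, 7 lay above 0 and 10 below, with 0 called. DTX4, a Deltex ubiquitin ligase, was at 0.06, 0.08 and 0.10 with control and at -0.23, -0.06 and -0.07 with SDC1 siRNA (-0.20 ± 0.07, adjusted p = 0.397). NEURL1B, a Neuralized ubiquitin ligase that acts on ligands, was at 0.29 ± 0.11 (adjusted p = 0.422) with overlapping groups.

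The 19 measured coactivators and corepressors had a median of -0.03, with 6 above and 13 below 0 and 0 called. The acetyltransferase KAT2B was at -0.28 ± 0.14 (adjusted p = 0.521), with an SD of 0.31 among controls, and the corepressor CTBP2 at 0.12 ± 0.06 (adjusted p = 0.558).

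Of 17 other target genes, 10 lay above 0 and 7 below, with 0 called. HES2 was at -0.19, -0.13 and -0.12 with control and at 0.04, -0.00 and 0.09 with SDC1 siRNA, a log2 difference of 0.19 ± 0.07 (adjusted p = 0.367). The cyclin CCND1 was at -0.21 ± 0.09 (adjusted p = 0.451). NRARP, a feedback inhibitor that Notch induces in many tissues, was at 0.17 ± 0.08 (adjusted p = 0.482), on the side opposite to HES1 and HEY1.

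The secretory lineage genes that Notch restrains in the gut had 10 of 15 measured members above 0, a median of 0.01 and 0 called. TFF3, a goblet cell trefoil peptide, was at -0.08, -0.04 and -0.15 with control and at 0.13, 0.07 and 0.04 with SDC1 siRNA (0.17 ± 0.07, adjusted p = 0.425). ATOH1 was at 0.18 ± 0.11 (adjusted p = 0.609), from 1 probe set in the dimmest class with overlapping groups. Of these 15 genes, 8 were in the dimmest class.

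**Figure D4:**
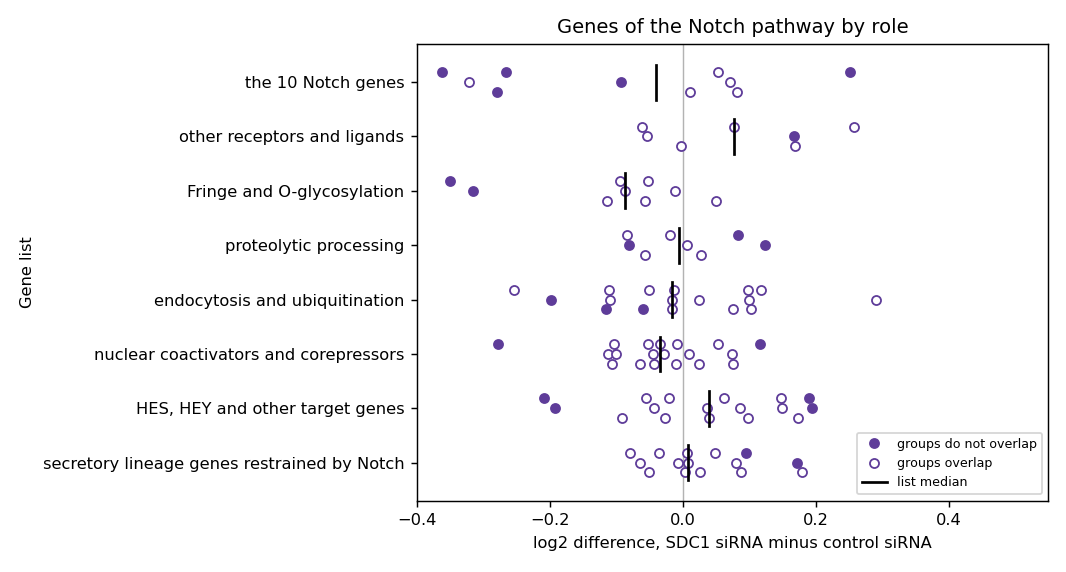
Log2 difference (SDC1 siRNA minus control siRNA) of each measured gene of the 10 Notch genes and of 7 lists of pathway genes by role; filled points have groups that do not overlap and black lines are list medians. The medians lie between -0.09 and 0.08, and 8 of 9 points of the glycosylation list lie below 0.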

How the data were processed

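Per the submitters' processing notes the authors used RMA, and they deposited centred values, read here as log2 because their numerical steps place the uncentred values within the range of log2 RMA signals: in 54675 of 54675 probe sets the 6 arrays have a median of 0 (tolerance 1e-06), by a step that no source used here describes. Brightness classes were read from single-precision spacing (17.3% of probe sets at 8 to 16, 45.2% at 4 to 8, 37.5% below 4), which can by chance overstate a class. Control probe sets (62) were left out, and 41091 probe sets with 1 symbol gave 19775 genes, each the mean of its brightest class. Groups by title were compared with limma 3.58.1 (R 4.3.3), group as the only term, Benjamini-Hochberg over all genes, threshold 0.05, and the fit was tested on simulated data. Differences are SDC1 siRNA minus control, ± moderated standard error.

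The genes, lists, probe set rule and tests were chosen with earlier results of these data known. Named genes were SDC1, the 10 genes, up to 2 genes of lowest p per list, and the 3 closest patterns to MAML2 and HEY1; MAML1, MAML3, HES4, NRARP, the Fringe genes, ADAM10 and ADAM17 were added after their values were seen. Other settings tried were quantile normalization, median centring, array weights, a robust fit, a replicate block, leaving out single arrays, other probe set rules, a brightness filter and an adjusted p of 0.01. No 2 arrays held the same values, and no scan date was used here.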

Additional observations from a re-analysis of the deposited data

How the results depend on the processing

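Over the alternatives run, 0 of the 10 Notch genes, 0 of the 92 other pathway genes and 0 of the 28 single probe sets passed an adjusted p of 0.05 in any of them; the alternatives for single probe sets were chosen after seeing the data. MAML2, HEY1, DLL1, JAG1, NOTCH1, NOTCH2 and RBPJ kept their direction in every alternative that gave them a value. HES1 turned to 0.052 without _x_at and _s_at probe sets, which leave only its dim probe set. Leaving out each array in turn gave NOTCH3 from -0.10 to 0.14 and JAG2 from -0.0052 to 0.13. The lowest adjusted p of MAML2 was 0.123, with array weights, and its highest 0.61, without SDC1 siRNA replicate 2. JAG1 moved from 0.25 to 0.08 and DLL1 from -0.27 to -0.02 with the mean of all probe sets.

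Over all genes the count past the threshold was 5. It was 0 with the replicate block, 39 with array weights, 3 with the mean of all probe sets, 11 at step class 4 or higher, 0 at an adjusted p of 0.01, and 0 to 1 with each array left out. With the replicate block, SDC1 stayed at -0.84 and lost its call (adjusted p = 0.0929), as with quantile normalization (-0.90, adjusted p = 0.0831). Leaving out each array gave SDC1 from -0.92 to -0.78. The cause of these changes was not tested, except that fewer arrays or genes enter some fits. The titles give replicate numbers but do not say whether these pair the arrays. Residuals of same-numbered arrays correlated at -0.01, -0.26 and -0.11, and those of other control and SDC1 siRNA pairs from -0.15 to 0.21. With 3 arrays per group this cannot settle the pairing, so the block is a check only. The block called 0 Notch genes. At an unadjusted p under 0.05 it had 5 of the 10 Notch genes, 8 of their 28 probe sets and 4 of the 92 pathway genes. Without the block these counts were 4, 7 and 9. Centred values without levels and 3 arrays per group limit every result.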
